A study of Homo sapiens with 6 samples.

Results

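The genes described here encode amino acid transporters of the solute carrier (SLC) families, taken as every row of the deposited count table whose symbol belongs to SLC1, SLC6, SLC7, SLC36, SLC38 or SLC43, with the heavy chains SLC3A1 and SLC3A2. The symbols match 59 of 60605 rows. Of these, 8 had no count in any library and were left out, SLC1A6, SLC7A3, SLC36A2 and SLC36A3 among them. That leaves 51 genes, of which 28 passed the filter on low counts and were tested. The rule follows family names, so it also takes in carriers of other solutes, such as the taurine carrier SLC6A6, the creatine carrier SLC6A8 and the nucleobase carrier SLC43A3.

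The cells are SW620, an established human colorectal cancer line from a lymph node metastasis. In the ELAPOR1 group they carried pLVX-IRES-Puro-ELAPOR1, a lentiviral construct for the endosome- and lysosome-associated membrane protein ELAPOR1, and in the vector group the empty lentiviral vector. Each group has 3 poly(A) RNA libraries. Lentivirus was given to both groups at a multiplicity of 20, puromycin selection used 2 ug/ml, and the cells were kept in medium with 10% serum, and the labels give no other treatment. The labels do not tell separate infections, dishes or clones apart within a group, so the spread behind each p-value is that of the libraries and may be technical.

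Amino acid transporters differ in how they are driven. Sodium-coupled carriers such as the SLC38 proteins and SLC6A14 load the cell, exchangers such as SLC1A5 and SLC7A5 swap an internal amino acid for an external one, and facilitators such as SLC43A1 let neutral amino acids move down their gradient. Most light chains of the SLC7 family reach the plasma membrane only when bound by a disulphide bridge to a heavy chain, SLC3A2 (also called CD98 or 4F2hc) or SLC3A1 (rBAT). Cancer cells are known for high levels of SLC1A5, SLC7A5, SLC7A11 and SLC3A2, through which glutamine, leucine and cystine enter and which feed mTORC1 signalling and glutathione synthesis. On lysosomes, SLC38A9 is known as an arginine sensor of mTORC1.

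The libraries held 16457436 to 19268166 counts in the ELAPOR1 group and 16401813 to 20571924 in the vector group, so 3 counts stood for between 0.157 and 0.1845 normalised CPM in ELAPOR1 cells and between 0.145 and 0.182 in vector cells. ELAPOR1 itself averaged 21126 ± 361.5 CPM in ELAPOR1 cells and 10.4 ± 1.47 CPM in vector cells (SD, n = 3 each). All 9 colorectal epithelial markers looked up, EPCAM and KRT8 among them, had counts, and their summed level was 7853 to 7867 CPM in ELAPOR1 cells and 8437 to 8832 in vector cells, with 1 marker higher and 5 lower by edgeR. Of 4 endothelial markers, 2 had no count in any library. Summed fibroblast markers stood at 25.5 to 30.9 CPM in ELAPOR1 cells and 17.7 to 19.0 in vector cells, most of it LUM. Of the 7 fibroblast markers 4 were tested, and LUM and ACTA2 were higher in ELAPOR1 cells, at edgeR adjusted p = 3.90e-07 and 0.0146. COL1A1 averaged 2.45 CPM in ELAPOR1 cells and 2.56 CPM in vector cells, and PDGFRB 0.842 CPM in ELAPOR1 cells and 0.607 CPM in vector cells, neither of them called. COL1A2, COL3A1 and DCN had 0 to 2 counts in any library. Summed immune markers stood at 7.86 to 8.06 CPM in ELAPOR1 cells and 5.62 to 7.87 in vector cells, with none of the 3 tested called. The part of these markers in the transporter values was not tested. In bulk RNA, fewer cells of a kind and less RNA per cell cannot be told apart.

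Summed over the 51 genes, the transporters took a larger share of the counts in ELAPOR1 cells. The sum leans on abundant genes. SLC38A2, SLC7A5 and SLC1A5 averaged 1178, 653 and 656 CPM in ELAPOR1 cells, against 1045, 537 and 588 CPM in vector cells. The summed level of all the transporters was 5624, 5521 and 5547 CPM in the ELAPOR1 libraries, against 5090, 5060 and 5048 CPM in the vector libraries, and the groups did not overlap. Of the 28 tested genes, 14 rose and 3 fell at an adjusted p under 0.05 (edgeR quasi-likelihood test, Benjamini-Hochberg adjustment over 16003 genes). Across all tested genes 10.0% rose and 11.4% fell, so the count of higher transporters stood above that background and the count of lower ones close to it. The median log2 fold change was 0.16 over the 28 tested transporters and 0.0041 over all tested genes.

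Low-count transporters could pass the filter through a single group, so the comparison was also read among genes that averaged 10 CPM or more over all libraries. There 13 of 22 transporters rose and 3 fell, 72.7% in either direction, against 28.4% of the 9699 genes of that level. The changes were small. Of the 17 called transporters, 15 had a log2 fold change smaller in size than 0.5, and 9 smaller than 0.25. With limma on log2(FPKM + 1), 8 rose and 2 fell of 25 tested, while 727 of all genes rose and 1406 fell. Rises thus made up 80.0% of the transporter calls and 34.1% of the calls over all genes.

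**Figure D1:**
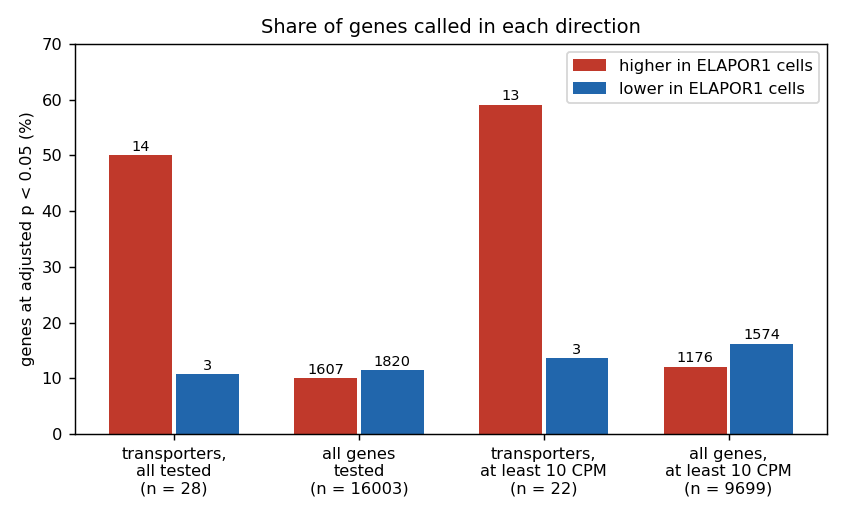
Percentage of tested genes that were higher (red) or lower (blue) in ELAPOR1 cells at an adjusted p under 0.05 by edgeR, with the number of genes above each bar. The transporters show 14 higher and 3 lower of 28 tested, while all genes show 1607 higher and 1820 lower of 16003.

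**Figure D2:**
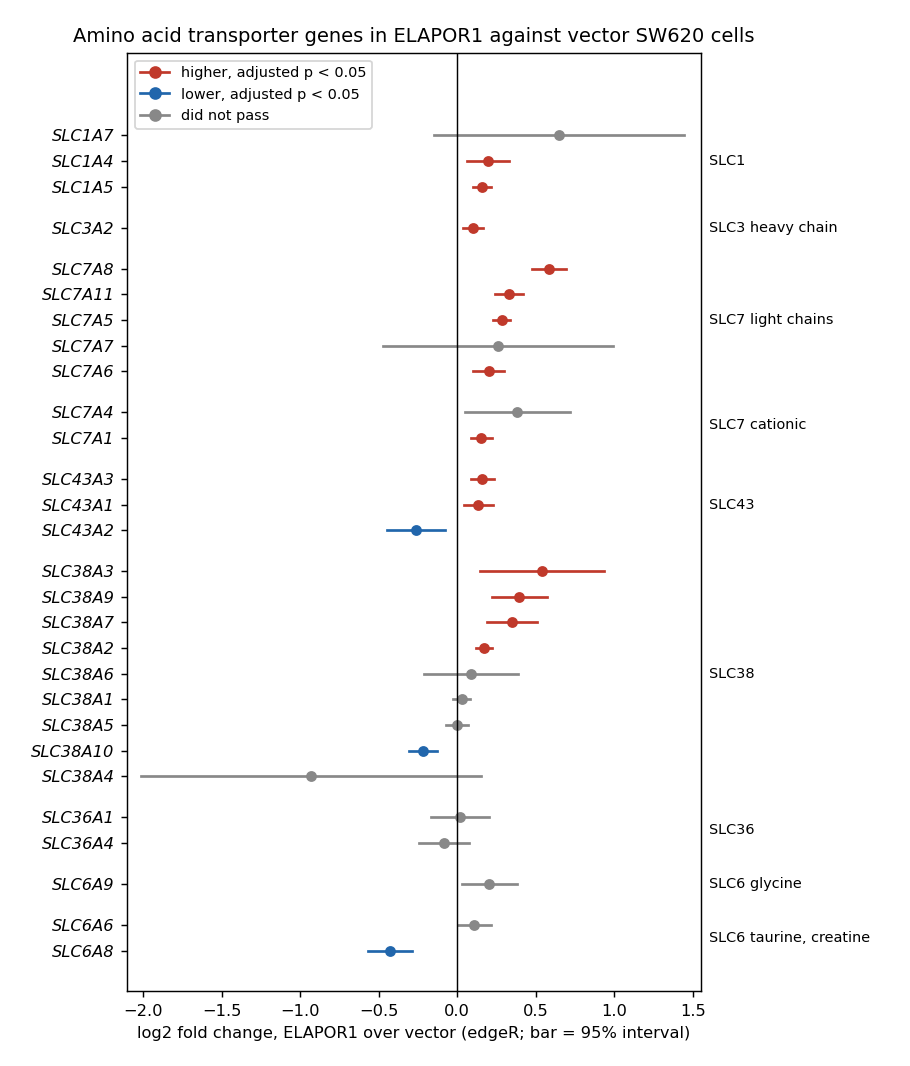
Log2 fold change, ELAPOR1 over vector, of the 28 tested transporter genes in family order, with points as edgeR estimates and bars as 95% intervals not adjusted for multiple tests. Red genes were higher, blue genes lower and grey genes did not pass; SLC7A8 lies furthest right and SLC6A8 furthest left among the called genes.

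Levels between genes are compared in FPKM, which divides counts by exonic length. The glutamine exchanger SLC1A5 was highest, at 191, 195 and 199 FPKM in ELAPOR1 cells and 171, 178 and 183 FPKM in vector cells. It was followed by SLC38A2, SLC7A5, SLC38A1, SLC3A2 and SLC38A5, and these 6 genes made up 77.4% to 78.1% of the transporters' summed FPKM in ELAPOR1 libraries and 77.3% to 78.1% in vector libraries. In all, 25 genes had a group mean of at least 1 FPKM. Several carriers were nearly absent in both groups: the heavy chain SLC3A1, the epithelial carriers SLC6A18, SLC6A19 and SLC6A20 and the astroglial glutamate carriers SLC1A2 and SLC1A3 had 0 to 3 counts in any library.

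**Figure D3:**
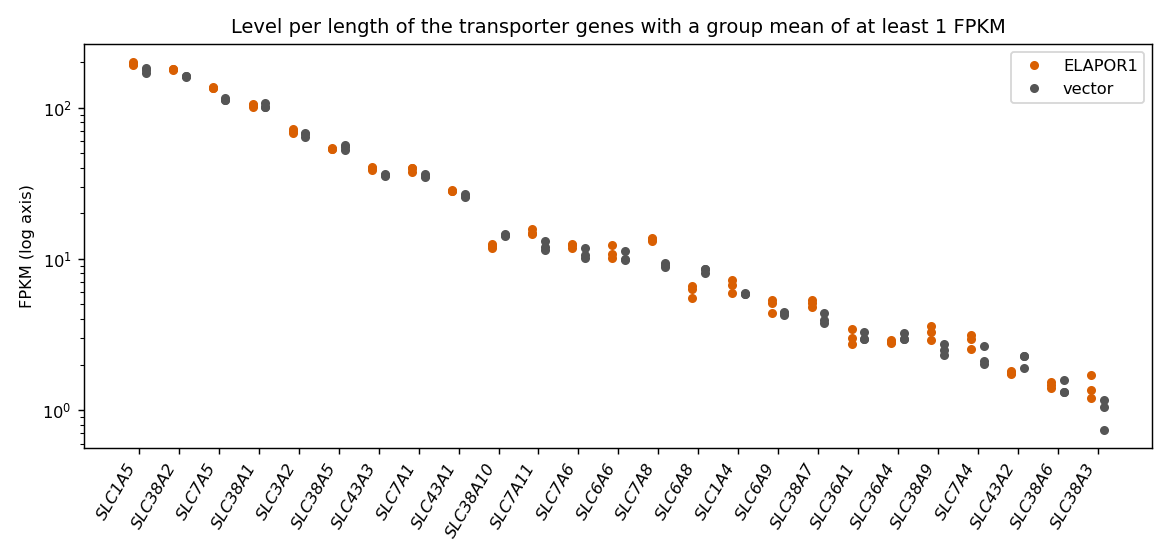
FPKM (log axis) in each of the 6 libraries for the 25 transporter genes with a group mean of at least 1 FPKM, ordered by the vector mean, with ELAPOR1 libraries in orange left of vector libraries in grey. SLC1A5, SLC38A2, SLC7A5 and SLC38A1 lie above 100 FPKM in all 6 libraries.

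Most light chains of the heterodimeric exchangers rose, as did their heavy chain SLC3A2: of 5 tested light chains 4 rose and none fell. SLC7A8, which encodes LAT2, a light chain for neutral amino acids typical of absorptive epithelium and kidney, showed the largest rise among called transporters. It stood at 80.0, 81.3 and 83.2 CPM in ELAPOR1 cells, against 52.7, 55.8 and 54.5 CPM in vector cells. Every ELAPOR1 library lay well above every vector library. The edgeR estimate was a log2 fold change of 0.59 ± 0.0533 (SE; adjusted p = 1.13e-14).

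SLC7A8 (GRCh38 chromosome 14, 23125295 to 23183674, minus strand) has 4 listed starts in RefSeq, and the gene counts do not say which was used. The 250 bases before the start that carries an E-box are shown, because this gene had the largest rise. The stretch lies at chr14:23154394-23154643 of GRCh38.p14, minus strand, and the capitals mark the E-box (CACGTG, a motif bound by MYC and other basic helix-loop-helix factors).
SLC7A8 promoter: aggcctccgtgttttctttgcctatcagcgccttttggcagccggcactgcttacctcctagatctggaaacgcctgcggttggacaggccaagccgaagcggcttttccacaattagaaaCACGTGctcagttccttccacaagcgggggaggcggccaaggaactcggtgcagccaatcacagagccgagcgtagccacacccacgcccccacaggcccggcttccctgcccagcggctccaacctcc

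SLC7A5 encodes LAT1, the leucine importer of growing cells. It stood at 649, 660.3 and 651 CPM in ELAPOR1 cells and at 545, 536 and 531 CPM in vector cells. The spread within each group was far less than the gap between the groups. Its log2 fold change was 0.28 ± 0.0285 (SE; edgeR, adjusted p = 6.55e-13). SLC7A11, which encodes xCT, the cystine-glutamate exchanger behind glutathione synthesis, had 154, 143 and 142 CPM in ELAPOR1 cells and 125, 115 and 109.6 CPM in vector cells. Its groups were also separate, at a log2 fold change of 0.33 ± 0.0438 (SE; edgeR, adjusted p = 6.17e-09). An antisense gene, SLC7A11-AS1, overlaps it but held 131 counts in all, against 14410 for SLC7A11.

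SLC7A6, or y+LAT2, which exports cationic amino acids in exchange for neutral ones, had 96.7, 94.1 and 90.2 CPM in ELAPOR1 cells and 88.1, 80.2 and 75.9 CPM in vector cells. The lowest ELAPOR1 library stood just above the highest vector library, and the edgeR adjusted p, 0.00170, became 0.102 with limma on log2(FPKM + 1). SLC7A6OS overlaps it on the other strand and had a log2 fold change of -0.0018. SLC7A7, or y+LAT1, was rare, at 1.62 ± 0.104 CPM in ELAPOR1 cells and 1.36 ± 0.292 CPM in vector cells, and its change did not pass (adjusted p = 0.696).

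The heavy chain SLC3A2 had 464, 438 and 453 CPM in ELAPOR1 cells and 408, 433 and 423 CPM in vector cells. The groups were separate but nearly touched. The log2 fold change was 0.10 ± 0.0310 (SE; edgeR, adjusted p = 0.0135), the smallest change among the called genes. The call was lost without ELAPOR1 replicate 1 (adjusted p = 0.133), without ELAPOR1 replicate 3 (0.0599), without vector replicate 1 (0.0732) and with library sizes alone (0.0552). SLC7A5 stood at 1.88, 2.02 and 1.93 times SLC3A2 in FPKM in the ELAPOR1 libraries and at 1.79, 1.66 and 1.68 times in the vector libraries. The sum of the 6 light chains that pair with SLC3A2 and had counts was set against SLC3A2 as well. It was 2.46, 2.62 and 2.51 times SLC3A2 in the ELAPOR1 libraries and 2.32, 2.13 and 2.15 times in the vector libraries. The ELAPOR1 libraries lay higher in both ratios, but SLC7A5 made up most of that sum, so the ratios are not separate observations.

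**Figure D4:**
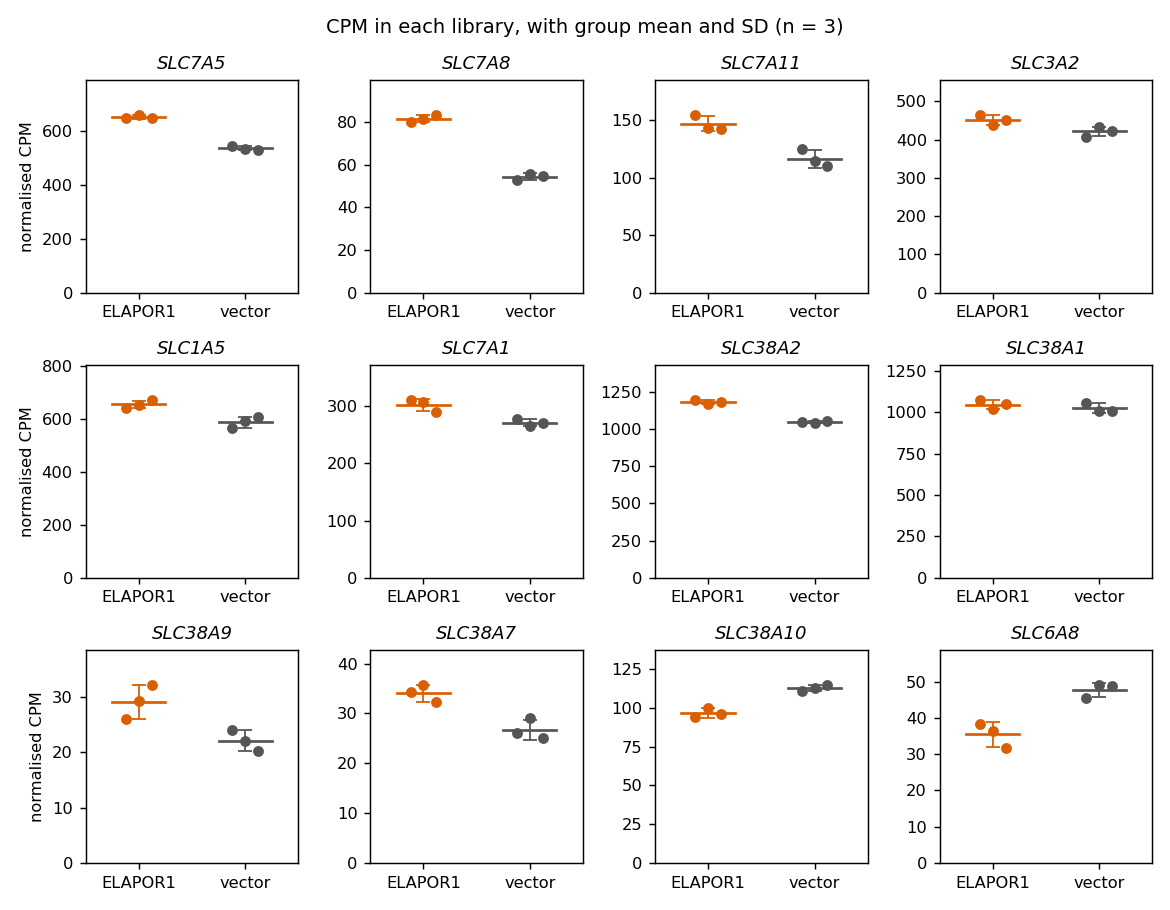
Normalised CPM in each library for 12 transporter genes, with ELAPOR1 libraries in orange left of vector libraries in grey, a line at the group mean and bars for the SD (n = 3). SLC7A5 and SLC7A8 show a clear gap upwards in ELAPOR1 cells, SLC38A1 overlaps between groups, and SLC38A10 and SLC6A8 lie lower in ELAPOR1 cells.

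Among carriers that work without a heavy chain, SLC1A5, the glutamine exchanger ASCT2, had 643, 654 and 670.5 CPM in ELAPOR1 cells and 564, 592 and 607 CPM in vector cells. The groups were separate, and the log2 fold change was 0.16 ± 0.0293 (SE; edgeR, adjusted p = 1.69e-05). Its close relative SLC1A4, or ASCT1, which carries alanine, serine and cysteine, had 50.8, 47.1 and 41.6 CPM in ELAPOR1 cells and 40.6, 40.8 and 40.1 CPM in vector cells. The vector libraries were nearly equal and the ELAPOR1 libraries spread upwards from just above them. Its log2 fold change of 0.20 had adjusted p = 0.0268 by edgeR. That became 0.267 without ELAPOR1 replicate 1, where the change was 0.13, and 0.0888, 0.0588, 0.0570 and 0.0774 without ELAPOR1 replicate 2 and vector replicates 1, 2 and 3. Only without ELAPOR1 replicate 3 did the call stay when a library was left out. The third tested SLC1 gene, the glutamate carrier SLC1A7, had 22 to 36 counts in ELAPOR1 libraries and 12 to 24 in vector libraries and did not pass (adjusted p = 0.274).

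SLC7A1, or CAT-1, the main importer of arginine and lysine in many cells, had 310, 307 and 289 CPM in ELAPOR1 cells and 278, 266 and 269.9 CPM in vector cells. All ELAPOR1 libraries lay above all vector libraries, at a log2 fold change of 0.15 ± 0.0337 (SE; edgeR, adjusted p = 0.000275). With limma on log2(FPKM + 1) the adjusted p was 0.0526. SLC7A4, a relative of unclear substrate, averaged 7.11 ± 0.774 CPM in ELAPOR1 cells and 5.49 ± 0.822 CPM in vector cells (adjusted p = 0.0969), and passed only without vector replicate 3, at 0.0491.

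The SLC38 family, sodium-coupled carriers of glutamine and other neutral amino acids, was mixed: of 9 tested genes 4 rose and 1 fell. SLC38A2, or SNAT2, which cells use to adapt to amino acid shortage and hypertonic stress, was the most abundant of them. It stood at 1192, 1165 and 1177 CPM in ELAPOR1 cells, against 1044, 1038 and 1052 CPM in vector cells. The replicates of each group lay close together and the groups were apart, at a log2 fold change of 0.17 ± 0.0256 (SE; edgeR, adjusted p = 1.22e-07). Its neighbour on chromosome 12, SLC38A1, or SNAT1, had 1073, 1020 and 1050 CPM in ELAPOR1 cells and 1060, 1011 and 1007 CPM in vector cells. These groups overlapped, and the 95% interval of the log2 fold change ran from -0.02 to 0.08. SLC38A5, or SNAT5, averaged 217.3 ± 2.90 CPM in ELAPOR1 cells and 217.4 ± 8.49 CPM in vector cells, and its interval ran from -0.07 to 0.07.

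Both SLC38 carriers known from the lysosomal membrane were higher. SLC38A9, the arginine-sensing carrier that binds the Ragulator complex, had 26.0, 29.3 and 32.1 CPM in ELAPOR1 cells and 24.0, 22.1 and 20.3 CPM in vector cells. Its log2 fold change was 0.40 ± 0.0875 (SE; edgeR, adjusted p = 0.000330), with more spread among the ELAPOR1 libraries than among the vector libraries. SLC38A7, or SNAT7, which lets glutamine and asparagine out of lysosomes, had 34.3, 35.6 and 32.2 CPM in ELAPOR1 cells and 26.0, 29.1 and 25.1 CPM in vector cells. Its groups were apart, at a log2 fold change of 0.35 ± 0.0793 (SE; edgeR, adjusted p = 0.000530). With limma on log2(FPKM + 1) the SLC38A9 call was lost (adjusted p = 0.0698). The tested SLC36 carriers, of which SLC36A1 is proton-coupled and known from lysosomes, did not pass. SLC36A1 had an interval from -0.17 to 0.20 and SLC36A4 from -0.24 to 0.07.

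SLC38A10, a member found in many tissues whose role is less well understood, fell. It had 94.0, 100.2 and 96.3 CPM in ELAPOR1 cells and 110.7, 113 and 114 CPM in vector cells. The highest ELAPOR1 library lay below the lowest vector library, and the log2 fold change was -0.22 ± 0.0449 (SE; edgeR, adjusted p = 0.000115). SLC38A3, or SNAT3, a glutamine carrier of liver and kidney, had only 89, 92 and 122 counts in ELAPOR1 libraries and 90, 86 and 48 in vector libraries. Its log2 fold change of 0.54 had adjusted p = 0.0386 by edgeR. That rose to 0.0639, 0.270, 0.0567 and 0.231 without ELAPOR1 replicates 1 and 3 and vector replicates 2 and 3. DESeq2 gave 0.141, and the authors' deposited table gave 0.0582. SLC38A6 did not pass (adjusted p = 0.755). SLC38A4 had 3 to 10 counts in ELAPOR1 libraries and 10 to 17 in vector libraries and did not pass either, at 0.241.

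All 3 SLC43 genes passed, in both directions. SLC43A1, or LAT3, a facilitator for branched-chain amino acids, had 100.1, 99.7 and 101.6 CPM in ELAPOR1 cells and 89.4, 94.1 and 90.9 CPM in vector cells. SLC43A3, which carries purine nucleobases and lies near it on chromosome 11, had 176, 185 and 181 CPM in ELAPOR1 cells. In vector cells it had 163, 162 and 159.8 CPM. Both sets of groups were apart, with log2 fold changes of 0.13 ± 0.0461 for SLC43A1 and 0.16 ± 0.0377 for SLC43A3 and adjusted p = 0.0267 and 0.000804 by edgeR. SLC43A2, or LAT4, also a facilitator of branched-chain amino acids, went the other way, with 18.8, 19.2 and 18.6 CPM in ELAPOR1 cells and 23.8, 20.2 and 24.0 CPM in vector cells. Vector replicate 2 stood close to the ELAPOR1 libraries, and the log2 fold change of -0.26 had adjusted p = 0.0336. The SLC43A1 call was lost without ELAPOR1 replicate 1, 2 or 3, at adjusted p = 0.0664, 0.0588 and 0.103, and without vector replicate 1 or 3, at 0.0890 and 0.0834. The SLC43A2 call was lost without the same libraries, at 0.0729, 0.0605, 0.0925, 0.124 and 0.147. DESeq2 with default settings called neither, with adjusted p = 0.0723 for SLC43A1 and 0.110 for SLC43A2.

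In the SLC6 family, only 3 of 16 genes with a count could be tested. SLC6A8, which brings creatine into the cell, fell. It had 38.4, 36.4 and 31.7 CPM in ELAPOR1 cells, against 45.6, 49.0 and 48.7 CPM in vector cells. Each ELAPOR1 library lay below each vector library, at a log2 fold change of -0.43 ± 0.0693 (SE; edgeR, adjusted p = 9.91e-07), the largest fall among called transporters. SLC6A9, the glycine carrier GlyT1, had 27.2, 28.1 and 23.2 CPM in ELAPOR1 cells and 23.0, 22.8 and 22.3 CPM in vector cells, and missed the threshold at adjusted p = 0.0892. The taurine carrier SLC6A6 averaged 92.1 ± 9.56 CPM in ELAPOR1 cells and 85.2 ± 5.65 CPM in vector cells, with overlapping groups and adjusted p = 0.141. SLC6A9 passed without ELAPOR1 replicate 3, at 0.0292, and SLC6A6 without ELAPOR1 replicate 2 or vector replicate 1, at 0.0317 and 0.0353.

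The 250 bases before the listed start of SLC6A8, the gene with the largest fall, hold neither of the motifs searched, so no base is in capitals. They lie at chrX:153687676-153687925 of GRCh38.p14, plus strand, and 76.4% of them are G or C.
SLC6A8 promoter: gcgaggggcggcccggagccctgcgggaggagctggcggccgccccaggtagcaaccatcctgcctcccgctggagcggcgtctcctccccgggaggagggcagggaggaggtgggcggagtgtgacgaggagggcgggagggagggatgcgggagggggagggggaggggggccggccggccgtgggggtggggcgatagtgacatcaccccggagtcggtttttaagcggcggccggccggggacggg

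The remaining 23 genes had between 1 and 54 counts over all 6 libraries and no group mean above 0.609 CPM, and were not tested. They include the broad-substrate epithelial carrier SLC6A14, the monoamine carriers SLC6A3 and SLC6A4, the glutamate carrier SLC1A1 and the cationic carrier SLC7A2. In 2 of them the groups did not overlap: SLC38A11 had 2, 0 and 1 counts in ELAPOR1 libraries and 8, 6 and 8 in vector libraries, and the orphan SLC6A16 had 1, 0 and 3 in ELAPOR1 libraries and 7, 11 and 6 in vector libraries. At such counts no test was made. Among the 28 tested genes the groups did not overlap in 20 (71.4%), against 33.8% of all tested genes.

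Promoters were searched for motifs with the direction of these changes known. Several of the transporters are textbook targets of ATF4, which binds the C/EBP-ATF response element, or of MYC, which binds the E-box. RefSeq promoters of GRCh38.p14, 250 bases before to 50 bases after each listed start, matched 23 of the 28 tested genes with 42 starts; SLC7A4, SLC7A11, SLC6A6, SLC38A3 and SLC43A3 had none. The response element was searched as TGATGNAA on both strands, and 5 of the 42 promoters (11.9%) held it, against 3.62% of all 35116 promoters. The E-box, CACGTG, which reads the same on both strands, was found in 9 of the 42 (21.4%), against 7.26% of all. The motifs do not overlap each other in these promoters. A match is a description of letters, not of binding, and starts of the same gene share sequence. Counted by gene, 5 of the 23 held the response element and 9 the E-box, against 4.46% and 8.77% of all 27305 symbols. With 42 starts for 23 genes, against 35116 for all symbols, the transporters had more windows per gene, which was not evened out. The background took every listed start, whether or not its gene was tested here.

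The stretches with a response element are shown with 10 bases on each side, or up to the window's end, on the gene's own strand; the capitals mark the element, which lies on the opposite strand in SLC1A4 and SLC3A2. Of these 5 genes 4 rose, and SLC38A1 did not pass. For comparison, 14 of all 28 tested transporters rose, with or without a matched promoter.
SLC1A5 (chr19:46784894-46784921): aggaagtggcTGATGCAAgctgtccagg
SLC1A4 (chr2:64989382-64989409): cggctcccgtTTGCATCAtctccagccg
SLC7A1 (chr13:29595664-29595691): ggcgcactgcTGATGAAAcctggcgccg
SLC3A2 (chr11:62881726-62881748): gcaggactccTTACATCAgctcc
SLC38A1 (chr12:46266503-46266530): cagacccgaaTGATGAAAagggatcagc

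E-boxes stood in promoters of 5 genes that rose, printed here with the E-box in capitals, and in those of SLC1A7, SLC7A7, SLC36A1 and SLC38A5, which did not pass. None of the 3 genes that fell had either motif in these windows, but 3 genes are too few to tie the motifs to a direction. Whether either motif went with the direction of change was not tested.
SLC7A5 (chr16:87869622-87869647): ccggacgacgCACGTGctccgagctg
SLC7A8 (chr14:23154507-23154532): caattagaaaCACGTGctcagttcct
SLC1A5 (chr19:46787328-46787353): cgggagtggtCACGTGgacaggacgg
SLC43A1 (chr11:57515799-57515824): gcgggcgagtCACGTGcgcgtgaaac
SLC38A7 (chr16:58684741-58684766): gatgcatgctCACGTGtctccgcagc

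The mRNA levels of these factors were also read. ATF4 had 691, 696 and 688 CPM in ELAPOR1 cells and 632, 686 and 668 CPM in vector cells, and its log2 fold change of 0.06 did not pass (adjusted p = 0.118). MYC rose to 387, 382 and 374 CPM in ELAPOR1 cells, against 343, 354 and 351 CPM in vector cells. Its log2 fold change was 0.13 (edgeR, adjusted p = 0.00157), and the MYC call was not followed through the alternative settings. Among other genes known as ATF4 targets, TRIB3 fell, at a log2 fold change of -0.26 (edgeR, adjusted p = 3.33e-08). ASNS, CHAC1 and DDIT3 did not pass (edgeR adjusted p = 0.652, 0.466 and 0.613). These targets were picked with their values known and do not stand for all targets of ATF4, some of which may have risen. The TRIB3 call was not followed through the alternative settings either. Levels of mRNA do not give the activity of the ATF4 or MYC protein. The part of either factor in the transporter values was not tested.

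Genes around the transporters were read from 6 lists, where 13 of 89 tested genes rose and 16 fell. These are 14.6% and 18.0%, beside the background of 10.0% and 11.4%. Among all genes of at least 10 CPM, 12.1% rose and 16.2% fell, close to the shares of the lists. The lists themselves were not cut at that level. The lists were compiled with earlier results of these data known. Among enzymes of glutamine, glutamate, aspartate and asparagine, 2 of 12 rose and 4 fell. The alanine aminotransferase gene GPT2 had a log2 fold change of 0.27, whereas GOT1, the cytosolic aspartate aminotransferase, had -0.28, GLUL, glutamine synthetase, -0.25 and GFPT1, the first enzyme of hexosamine synthesis, -0.20. Of 10 genes of cystine, glutathione and transsulphuration, 2 rose and none fell: GCLM, a subunit of the rate-limiting enzyme of glutathione synthesis, at 0.44 and GSS, glutathione synthetase, at 0.24. Among 15 enzymes of branched-chain amino acids, methionine and arginine, MTR rose by 0.16 and 3 fell, namely ARG2, an arginase, at -0.57, ODC1, which starts polyamine synthesis, at -0.30 and ASS1, which makes arginine, at -0.15. The largest adjusted p among the called genes named in these 3 lists was 0.0246, for MTR.

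Of 26 amino acid sensing genes 2 rose and 5 fell, 26.9% in either direction, near the 21.4% of all tested genes. Among all genes of at least 10 CPM that share was 28.4%. The Rag GTPase gene RRAGD rose by 0.52 and EIF2AK4, the kinase GCN2 that senses uncharged tRNA, by 0.29, while SESN3, a sestrin, changed by -0.52 and RRAGA by -0.31. Of 14 other amino acid and peptide transporters 2 rose, the aromatic amino acid carrier SLC16A10 at 0.34 and the mitochondrial aspartate-glutamate carrier SLC25A12 at 0.23. A further 2 fell, the mitochondrial glutamate carrier SLC25A22 at -0.45 and the lysosomal cysteine importer MFSD12 at -0.17. In either direction, 28.6% of this list was called, also near those shares. Of 12 partners and regulators of the transporters 4 rose and 2 fell. CD44, whose splice variants are known to stabilise SLC7A11 at the cell surface, rose by 0.90, to 26.7 ± 0.429 CPM in ELAPOR1 cells against 14.3 ± 1.73 CPM in vector cells. NEDD4, a ubiquitin ligase, rose by 0.32, NFE2L2, a regulator of SLC7A11, by 0.13, and ARL6IP5, which binds SLC1A1, changed by -0.27. The largest adjusted p among the called genes named in these lists was 0.0360, for MFSD12. The calls of MTR, SLC16A10, SLC25A12, MFSD12 and NFE2L2 were each lost on leaving out at least 1 library, at adjusted p up to 0.170, 0.0758, 0.155, 0.176 and 0.164 in that order. The RRAGD call was lost under all 3 limma settings, at adjusted p = 0.0900, 0.0876 and 0.217, and those of EIF2AK4 and ARL6IP5 under limma with no filter, at 0.0916 and 0.0960.

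Read overlap bears on some of these values. None of the 9 rows named as pseudogenes of these families, SLC7A5P1 and SLC7A5P2 among them, had a count in any library, but reads shared with SLC7A5 may have been dropped or assigned to it. TRMT5, which overlaps SLC38A6, held 3821 counts, more than the 813 of SLC38A6, and rose by 0.29, so the value of SLC38A6 is uncertain. SLC38A4 is uncertain too, with 64 counts against 349 of an unnamed gene on the other strand. CCDC24 held 678 counts against 2682 of SLC6A9, and P2RX6 189 against 688 of SLC7A4. Reads of such pairs cannot be told apart, because the setting for strand is not stated in the sources used here.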

How the data were processed

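Poly(A) RNA of SW620 cells was sequenced in 3 ELAPOR1 and 3 vector libraries. The deposited table holds raw counts per gene and FPKM, which the authors scaled by exonic length and total counts: all 142222 values with a count were matched within 0.01. The submitters' processing notes name GRCh38 as the build, with HISAT2 2.0.1, cutadapt 1.9.1, DESeq2 and HTSeq 0.6.1 as tools. The authors' deposited table of their own comparison gives log2 fold changes and adjusted p-values. Of the 17 transporters called here, 16 were called there, and all 17 had the same direction.

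Counts were fitted over the whole table by the quasi-likelihood test of edgeR 4.0.16 under R 4.3.3 (TMM factors, low counts removed by filterByExpr, two-sided, Benjamini-Hochberg adjusted p under 0.05, no covariate), which was also tested on simulated data. In the simulation the test recovered 21 of 37 tested genes changed 1.25-fold and 30 of 38 changed 1.5-fold. It made 7 false calls among 15865 tested genes. The simulation gave all genes the common dispersion, so recovery in the real data may differ, and small changes can be missed. CPM use TMM factors. Intervals are 95% and cover 1 gene each, and floors of 3 counts cover counting error only. No libraries were merged, since counts of replicates differed by more than sampling noise, with a mean chi-square of 2.43 to 3.62 per gene. Alternatives were DESeq2 1.42.0, other scalings and filters, a replicate block, limma 3.58.1 with a mean trend on log2(FPKM + 1) or log2(FPKM + 0.1), a stricter threshold, leaving out ELAPOR1 and leaving out each library; DESeq2 with a local dispersion trend was chosen after seeing the data. Every transporter was accounted for, with values for all called genes and all of at least 10 CPM. In each pathway list up to 4 called genes with the largest changes were named. ATF4, MYC, TRIB3, ASNS, CHAC1, DDIT3 and overlapping genes were named outside this rule, with their values known. The members and lists were chosen with earlier results of these data known. Some items are not reported here.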

Additional observations from a re-analysis of the deposited data

How the results depend on the processing

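Of the 17 called transporters, 7 kept the call under every alternative run (SLC7A5, SLC7A8, SLC7A11, SLC38A2, SLC38A10, SLC43A3 and SLC6A8) and 10 lost it under at least 1, 5 of them on leaving out a library; none of the 17 changed direction. The number of transporters that rose, 14 by edgeR, was 8 with limma on log2(FPKM + 1), 8 on log2(FPKM + 0.1) and 5 on log2(FPKM + 1) with no filter, where 2 fell and the share of rises among calls was 71.4%, against 82.4% by edgeR. Over all genes that share was 32.8% with no filter and 34.1% with it, against 46.9% by edgeR. Pathway list genes that rose numbered 7, 7 and 5 under the same 3 settings, against 13, and the cause was not tested. Of the 22 called pathway genes named by the rule, 8 lost the call under at least 1 alternative and none reversed. DESeq2 called 11 transporters higher and 2 lower. Leaving out 1 library gave 10 to 13 higher and 2 to 3 lower transporters, and 9 to 14 higher and 14 to 19 lower pathway genes. SLC36A1 changed sign with library sizes alone (-0.0057), limma on log2(FPKM + 1) with and without the filter (-0.0082 each) and on log2(FPKM + 0.1) (-0.0114), and ran from -0.0705 to 0.0798 on leaving out a library. SLC38A5 changed sign with RLE factors (0.0004) and ran from -0.0343 to 0.0254 on leaving out a library. Neither gene passed under any of these.

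Same-numbered libraries did not deviate together (correlations of -0.0216, -0.0345 and -0.0209), so the numbers were not taken as pairs. With the replicate block, 13 transporters rose and 3 fell, and 13 pathway genes rose and 16 fell; SLC38A3 lost its call at an adjusted p of 0.0537. Depth limits SLC7A7, SLC1A7, SLC38A4 and the 23 untested transporters.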
